A study of Medicago truncatula with 9 samples.

Results

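Seed transcripts of the insertion line hsfa9-2 were set against those of the insertion line hsfa9-1, with 3 libraries a side. Every expressed locus entered the comparison: 17508 of the 36695 loci in the table, those with at least 1 FPKM (fragments per kilobase of transcript, scaled to the mapped total) in at least 3 of the 9 libraries. Between the lines 196 loci differed at an adjusted p under 0.05, which was 1.12% of the loci tested; 86 were higher in hsfa9-2 (0.491%) and 110 were lower (0.628%). Among those called as higher were 5 of 18 tested seed storage protein loci and 2 of 11 tested class I small heat shock protein loci. Among those called as lower were 7 of 317 tested F-box protein loci, a list added after values were seen. The median absolute log2 change was 0.736 over the 196 loci, and 61 of them changed by at least 1 on the log2 scale.

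The study sequenced mRNA-enriched libraries from mature dry seeds of Medicago truncatula, a model legume. The wild type was the accession R108. The 2 mutants were the Tnt1 retrotransposon insertion lines NF10440, named hsfa9-1, and NF13157, named hsfa9-2, both in the R108 background. Each library came from 50 seeds, the 3 libraries of a line came from different plants, and the labels give the same growth conditions for every sample (20 and 19 °C, 16 h of light), with pods dried at 43% relative humidity and seeds then kept at 20 °C. Each allele was represented by 1 insertion line. Tnt1 lines usually carry further insertions elsewhere in the genome, so a difference between the lines can belong to the allele or to other insertions, and these cannot be told apart here. HSFA9 itself is not named in any description of the table, and its own level was therefore not examined.

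Heat stress transcription factors bind heat shock elements and switch on chaperone genes. HSFA9 is a seed-specific member of class A, known from sunflower and Arabidopsis, where it is active late in seed maturation, acts downstream of abscisic acid signalling and drives small heat shock proteins in the embryo without any heat stress. Mature legume seeds also store legumins, vicilins and 2S albumins, and accumulate late embryogenesis abundant (LEA) proteins and raffinose family sugars before they dry. In a bulk seed sample, fewer cells of a type and less RNA per cell cannot be told apart.

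The 9 libraries had similar summed FPKM, between 922801 and 981285, and the labels give an average of 24 M reads of 50 bp per library. A relative depth read from the lowest values of 4805 transcript models was 0.987 to 1.01. Only values close to the lowest of each model entered it, so it could not show a larger difference in depth. The mutants each differed from R108 far more than from each other: 59.5% of loci were called between hsfa9-1 and R108 and 62.3% between hsfa9-2 and R108. Replicates 1 and 3 of hsfa9-2 stood apart from the other libraries, in different ways. Replicate 1 correlated at 0.988 to 0.989 with the hsfa9-1 libraries (Pearson, log2 scale). With replicates 2 and 3 of its own line it correlated at 0.990 and 0.987. The spread within hsfa9-2 was thus close in size to the gap between the lines. For 19 loci that fell to at most 1 in 50 of their R108 level in hsfa9-1, the median library level was 0.578 to 1.02% of R108 in the 3 hsfa9-1 libraries, 0.596 and 0.673% in hsfa9-2 replicates 2 and 3, and 5.06% in hsfa9-2 replicate 1. On the first principal component (81.5% of variance) replicate 1 of hsfa9-2 scored 32.4, while its other libraries scored 42.5 and 41.9, hsfa9-1 34.7 to 37.7 and R108 −76.0 to −74.8. Without hsfa9-2 replicate 1, 324 loci were called (1.85%), 132 higher and 192 lower; 165 of the 196 were among them. Replicate 3 of hsfa9-2 had 12.3% of its FPKM in its 10 most abundant loci (8.64 to 10.7% in the other 8 libraries) and 16220 loci at 1 FPKM or more (16360 to 16606 in the others). On the second principal component (4.83% of variance) it scored −24.2, against −4.98 and −14.4 for hsfa9-2 replicates 1 and 2 and 14.1 to 16.6 for hsfa9-1. Without it 120 loci were called, 60 in each direction. The part of either library in single results was not tested beyond the values given with and without it.

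**Figure D1:**
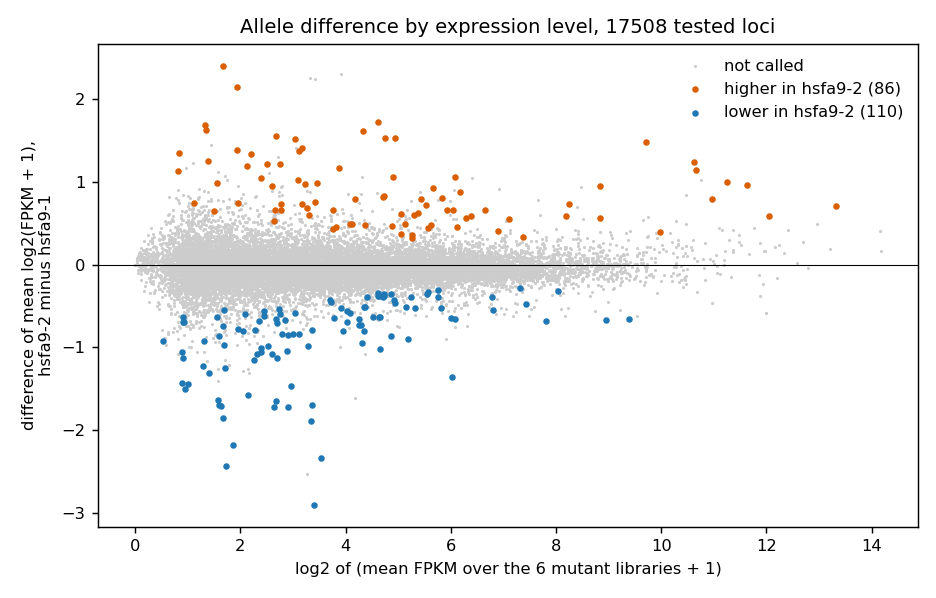
Difference between the alleles (mean log2(FPKM + 1) of hsfa9-2 minus that of hsfa9-1, vertical axis) against expression level (log2 of the mean FPKM over the 6 mutant libraries plus 1, horizontal axis); each point is 1 of 17508 loci. The 86 loci higher in hsfa9-2 (orange) reach the most abundant transcripts on the right, and the 110 lower loci (blue) lie mostly at low and middle levels, down to −2.90.

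The loci called higher and those called lower differed in expression level, which was compared between these groups only and not with all tested loci. Over the higher loci the median of the larger mutant mean was 32.8 FPKM, and 17 of the 86 reached 100 FPKM. Over the lower loci it was 11.9 FPKM, and 8 of the 110 reached 100 FPKM. Across all tested loci the median log2 difference was −0.05 and 62.7% of loci had a negative value. The split of calls depended on how libraries were scaled: it was 114 higher and 78 lower after median centring, and 111 and 90 after quantile normalization, against 86 and 110 as reported. The libraries of the lines did not overlap at 3336 loci (19.1%), with hsfa9-2 above at 975 (5.57%) and below at 2361 (13.5%), and all 196 called loci were among these. The 95% limits of the difference lay within 1 log2 unit of 0 for 16758 loci (95.7%), and the limits reached a median of 0.255 to either side of the estimate.

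Storage protein transcripts that passed the test were all more abundant in hsfa9-2 seeds than in hsfa9-1 seeds. Of 32 loci described as legumin, glycinin, vicilin, 2S albumin or another seed storage protein, 18 were tested; 5 rose in hsfa9-2, where 0.491% of all tested loci were called higher, none fell, and 13 did not pass the test. Their median log2 difference was 0.62 against −0.05 over all tested loci, 17 of 18 were positive, and after median centring the median was 0.675. In 13 of the 18 every hsfa9-2 library lay above every hsfa9-1 library, where 5.57% of all loci did so. Summed over the list, hsfa9-1 held 14542, 9443 and 11365 FPKM, hsfa9-2 20823, 19958 and 18789 FPKM, and R108 18197, 20223 and 17954 FPKM. The hsfa9-2 sums lay among or just above those of R108, and the hsfa9-1 sums lay below both, lowest in replicate 2. Single loci did not all follow the sums. Of the 18 tested, hsfa9-1 was called above R108 at 7 and below at 5, where 59.5% of all loci were called in either direction. For hsfa9-2 these counts were 13 and 2, where 62.3% of all loci were called. Without hsfa9-2 replicate 1, 4 storage loci were called, and without replicate 3, 5.

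The 2S albumins are small sulfur-rich storage proteins, and they showed the widest storage difference. Medtr2g083160 stood at 532, 306 and 516 FPKM in hsfa9-1, 1355, 1188 and 1146 in hsfa9-2 and 563, 630.2 and 553 in R108. All hsfa9-2 libraries were above those of both other groups, and the log2 difference between the mutants was 1.48 ± 0.18 (SE, adjusted p = 0.00406). A neighbouring 2S albumin locus, Medtr2g083110, was at 1985, 1333 and 1575 FPKM in hsfa9-1, 3182, 3353 and 3128 in hsfa9-2 and 3131, 3934 and 2944 in R108. Here hsfa9-2 lay within the R108 range and hsfa9-1 below it, with a log2 difference between the mutants of 1.00 ± 0.14 (adjusted p = 0.00885). The third, Medtr2g083130, was similar in size at 1.02 but missed the threshold (adjusted p = 0.0501). These genes belong to 1 family of similar sequence, and reads shared among them could have been split between loci by the authors' counting.

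Legumins are the 11S globulins of legume seeds, laid down in protein bodies of the cotyledon. Legumin A2 at Medtr7g096990 had 2562, 1738 and 2175 FPKM in hsfa9-1, 4807, 3701 and 4027 in hsfa9-2 and 2922, 2755 and 2568 in R108. The 3 groups did not overlap, with R108 between the mutants, and hsfa9-2 exceeded hsfa9-1 by 0.96 ± 0.14 (log2, adjusted p = 0.00901). The next locus, Medtr7g097000, also described as legumin A2, had 4122, 2345 and 2549.8 FPKM in hsfa9-1 and 4399, 3631 and 3843 in hsfa9-2, with R108 above both at 6124, 6781 and 6235. Its mutant libraries overlapped, and the log2 difference of 0.44 ± 0.18 did not pass the test (adjusted p = 0.301). The 3 further legumin and glycinin loci on chromosome 1, Medtr1g072600, Medtr1g072610 and Medtr1g072630, had differences of 0.84, 0.93 and 0.78 with adjusted p-values of 0.102, 0.0634 and 0.0806. In each of them hsfa9-1 replicate 2 was the lowest of the 9 libraries.

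Vicilins, the 7S globulins, differed among themselves. Medtr1g103400 had 336, 258 and 336 FPKM in hsfa9-1, 681, 527 and 586 in hsfa9-2 and 1193, 905 and 1034 in R108. Both mutants lay below R108 without overlap, hsfa9-1 further, and the difference between the mutants was 0.95 ± 0.14 (log2, adjusted p = 0.00848). Medtr7g079820 was at 22.2, 25.6 and 27.6 FPKM in hsfa9-1 and 38.3, 44.9 and 34.1 in hsfa9-2, with R108 at 18.7, 21.8 and 21.9. It rose by 0.62 ± 0.11 (adjusted p = 0.0357), and without hsfa9-2 replicate 1 by 0.63 (adjusted p = 0.0521). The most abundant vicilin of that chromosome 7 cluster, Medtr7g079770, was at 847, 823 and 947 FPKM in hsfa9-1 and 831, 960.2 and 977 in hsfa9-2; these overlapped, both above R108 at 292, 328 and 289.5, and the log2 difference was 0.08 ± 0.09 (adjusted p = 0.703). A basic 7S globulin-like locus outside the list, Medtr7g113790, of a family with storage and protease inhibitor members, had 992, 794 and 1239 FPKM in hsfa9-1, 2446, 2421 and 1795 in hsfa9-2 and 1661, 1569.8 and 1661 in R108. Its groups did not overlap and R108 lay between the mutants, which differed by 1.15 ± 0.16 (adjusted p = 0.0077).

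**Figure D2:**
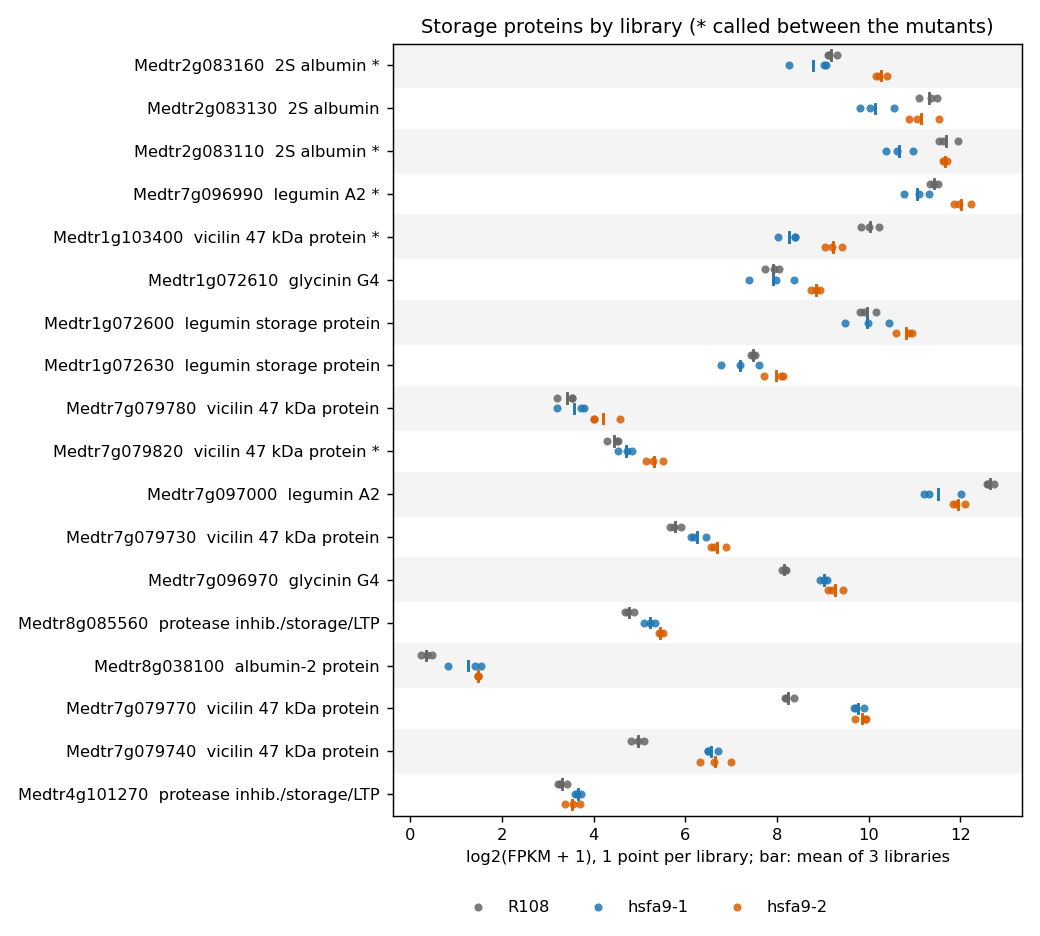
Level of the 18 tested storage protein loci, as log2(FPKM + 1) on the horizontal axis, with 1 point per library and a bar at the mean of 3 libraries (R108 grey, hsfa9-1 blue, hsfa9-2 orange); loci are ordered by the difference between the mutants and stars mark the 5 called. In 13 loci all orange points lie to the right of all blue points, while R108 takes places on both sides of them.

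In the lists of other late maturation products no locus passed the test, where 1.12% of all tested loci did. Lists of this size would hold few or no calls at that share. None of 59 tested LEA proteins and dehydrins, 8 oil body proteins or 10 loci of raffinose family sugar synthesis was called, with medians of 0.08, 0.132 and 0.149. Of the LEA loci 39 were positive and 20 negative. Without overlap, hsfa9-2 lay above at 8 of them and below at 4, where 5.57% and 13.5% of all loci did so. These counts were 1 and 0 for oil body proteins and 3 and 0 for the raffinose family list. LEA transcripts summed to 84047 ± 7670 FPKM in hsfa9-1 and 98638 ± 13261 in hsfa9-2 (SD, n = 3 each), and these sums overlapped between the lines. Those of the raffinose family list did not, at 5526, 5598 and 5681 FPKM in hsfa9-1 and 5835, 6051 and 5713 in hsfa9-2. The LEA locus with the lowest p, Medtr4g123950 of group 3, was at 2090.4, 2212 and 2389 FPKM in hsfa9-1 and 2552, 2651 and 3046 in hsfa9-2. Its libraries did not overlap, and the log2 difference was 0.30 ± 0.09 (adjusted p = 0.177). One locus outside the list, Medtr2g081590, described as an embryonic abundant-like protein and chosen after its values were seen, had 1568, 1387 and 1435 FPKM in hsfa9-1 and 2402, 2636 and 2569 in hsfa9-2, against 461, 566 and 542 in R108. It was higher in hsfa9-2 than in hsfa9-1 in every library, by 0.79 ± 0.09 (adjusted p = 0.00245).

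Small heat shock proteins bind unfolding proteins and keep them from aggregating, and class I is one of their cytosolic classes. Of 31 tested small heat shock protein loci, 2 rose in hsfa9-2 against hsfa9-1 (background 0.491%) and none fell; their median was 0.255, 26 were positive and 3 negative. Without hsfa9-2 replicate 1 there were 2 rises, and without replicate 3 there was 1. The median was larger in class I. All 11 tested class I loci were positive with a median of 0.713, and 2 of them were called. At 7 of them every hsfa9-2 library lay above every hsfa9-1 library, where 5.57% of all loci did so. The other 20 had a median of 0.12, with 15 positive and none called. Without overlap, hsfa9-2 lay above at 2 of these 20 and below at 1, where 13.5% of all loci lay below. Against R108, 9 of the 11 class I loci fell in hsfa9-1 and 9 fell in hsfa9-2, and 2 rose in each.

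Medtr4g088490, a class I protein, had 36.2, 42.8 and 43.1 FPKM in hsfa9-1, 73, 73.5 and 68.2 in hsfa9-2 and 312, 408 and 368 in R108. Both mutants were far below R108, and hsfa9-2 was above hsfa9-1 in every library by 0.80 ± 0.10 (log2, adjusted p = 0.00515). Medtr6g061940, of the same description, had 21.4, 29.9 and 36 FPKM in hsfa9-1 and 45.8, 49.1 and 67.3 in hsfa9-2, against 162, 218 and 166 in R108. The lines did not overlap, but the difference of 0.88 ± 0.20 missed the threshold (adjusted p = 0.0727). In Medtr6g061850, Medtr4g088445 and Medtr4g088450 the differences were 0.87, 0.88 and 0.90 with adjusted p-values of 0.161, 0.124 and 0.304. The lowest hsfa9-1 library was replicate 1 in each of these 3 and the highest was replicate 3. Class I genes are similar in sequence, so their reads may have been shared among loci.

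The most abundant small heat shock protein moved the other way from R108. Medtr5g081530, also of class I, had 4183, 4158 and 4174 FPKM in the wild type, 7264, 7401 and 8571 in hsfa9-1 and 10354, 13100.4 and 14964 in hsfa9-2. The 3 groups were ordered without overlap, with hsfa9-2 highest, and the mutants differed by 0.71 ± 0.13 (log2, adjusted p = 0.028). Without hsfa9-2 replicate 1 this was 0.86 (adjusted p = 0.00633), and the call was lost in 10 of 20 alternatives. This locus made up most of the summed small heat shock protein FPKM, 8504 ± 818 in hsfa9-1 and 13768 ± 2365 in hsfa9-2 (SD, n = 3 each).

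**Figure D3:**
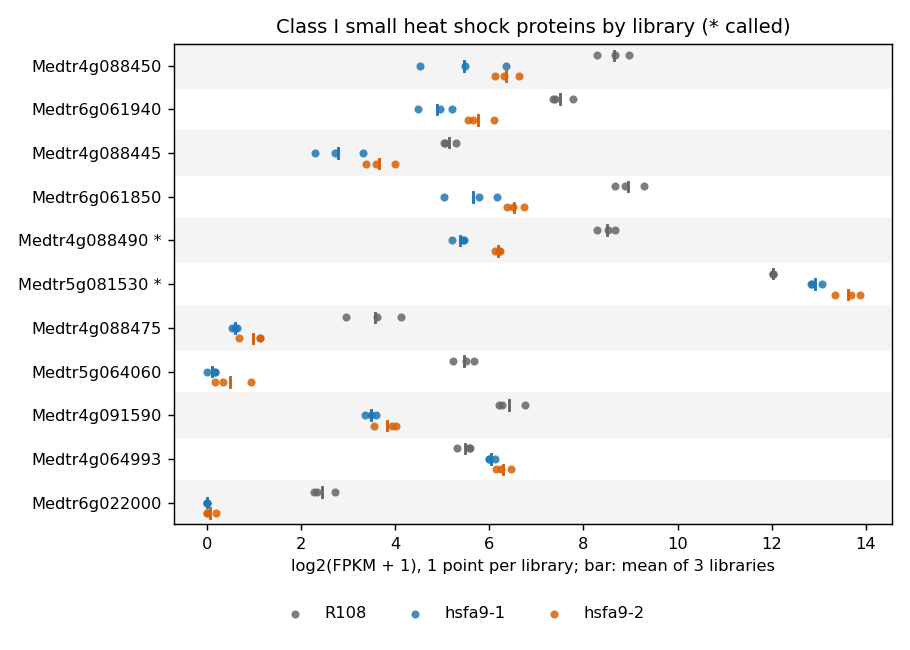
Level of the 11 tested class I small heat shock protein loci, as log2(FPKM + 1) on the horizontal axis, with 1 point per library and a bar at the mean of 3 libraries (R108 grey, hsfa9-1 blue, hsfa9-2 orange); stars mark the 2 called between the mutants. Orange bars lie to the right of blue bars at all 11 loci, and 9 of the loci have both mutants to the left of R108.

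Larger chaperones and heat stress factors held few calls. Over all tested loci 0.491% were called higher and 0.628% lower, so lists of this size would hold few or no calls. Of 66 tested HSP60, HSP70, HSP90 and HSP100 loci 1 rose and 1 fell, with a median of −0.09. In this list 48 of 66 were negative, and at 21 every hsfa9-2 library lay below every hsfa9-1 library, where 13.5% of all loci did so. Medtr4g109450, described as the chaperone ClpB, which pulls proteins out of aggregates, had 834, 894 and 872 FPKM in hsfa9-1, 1066, 1123 and 1225 in hsfa9-2 and 329, 331 and 296 in R108; the groups did not overlap and the mutants differed by 0.39 ± 0.07 (adjusted p = 0.0367), a call lost in 15 of 21 alternatives. Medtr7g024580, a heat shock cognate HSP70, had 288, 292 and 294 FPKM in hsfa9-1, 220.0, 229 and 249.6 in hsfa9-2 and 128, 127 and 134 in R108. It was lower in hsfa9-2 by −0.32 ± 0.06 (adjusted p = 0.0367), and without hsfa9-2 replicate 1 by −0.28 (adjusted p = 0.0582); the call was lost in 16 of 21 alternatives. Among 101 DnaJ co-chaperones and BAG proteins 1 rose, the low-expressed DnaJ locus Medtr4g080350 (0.53 ± 0.10, adjusted p = 0.0428), whose call was lost in 12 of 21. None of 21 heat stress transcription factors and their binding proteins was called. The lowest p among them belonged to Medtr5g010680, a class B factor, with 32.7, 40.8 and 40.4 FPKM in hsfa9-1, 47, 47.3 and 56.6 in hsfa9-2 and 66.7, 68.6 and 70.3 in R108 (0.40 ± 0.10, adjusted p = 0.105).

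Among described loci with a mean of at least 5 FPKM in the higher mutant, the largest rises in hsfa9-2 were in a receptor kinase, a channel, a protease inhibitor and sugar-modifying enzymes. Medtr2g074980, a leucine-rich repeat (LRR) receptor-like kinase, a class of membrane receptors that sense peptides and other ligands, was at 0, 0.02 and 0.02 FPKM in the wild type, 9.72, 8.78 and 13 in hsfa9-1 and 34.1, 40.5 and 35.1 in hsfa9-2. It was near 0 in the wild type and present in both mutants, and the hsfa9-2 libraries were above those of hsfa9-1 by 1.72 ± 0.13 (log2, adjusted p = 0.000322). Medtr3g100320, a mechanosensitive ion channel-like protein that by its family opens under membrane tension, had 7.99, 7.8 and 11.1 FPKM in hsfa9-1, 27.3, 37 and 24.4 in hsfa9-2 and 5.89, 5.87 and 5.76 in R108. All hsfa9-2 libraries stood above both other groups, with a difference between the mutants of 1.61 ± 0.16 (adjusted p = 0.00144).

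In 2 others the wild type lay above both mutants and hsfa9-2 was the nearer. Medtr4g023000, a glycoside hydrolase of family 1, whose members cleave glucosides and similar sugars, had 62.3, 62.6 and 64.3 FPKM in the wild type, 12.7, 20.3 and 12.6 in hsfa9-1 and 46.6, 44.1 and 42.9 in hsfa9-2. The mutants differed by 1.52 ± 0.15 (adjusted p = 0.00131). Medtr2g038320, a GDP-fucose protein O-fucosyltransferase, had 16.9, 18.2 and 20.4 FPKM in the wild type, 3.14, 3.4 and 3.22 in hsfa9-1 and 9.94, 11.4 and 12.4 in hsfa9-2, a difference between the mutants of 1.52 ± 0.10 (adjusted p = 0.000101). The 3 groups were separate at both loci. A locus with the same order, chosen after its values were seen, was the flavin-binding monooxygenase-like Medtr2g450310, with 21.2, 27.1 and 23.9 FPKM in the wild type, 1.23, 1.14 and 1.01 in hsfa9-1 and 5.04, 4.57 and 4.06 in hsfa9-2 (1.38 ± 0.11, adjusted p = 0.000408).

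The other large rises were at lower or similar levels. The UDP-glucosyltransferase Medtr2g040530, of a family that attaches glucose to small molecules, was at 0.74 ± 0.132 FPKM in the wild type, 8.02 ± 0.856 in hsfa9-1 and 19.3 ± 3.32 in hsfa9-2 (SD, n = 3 each), with a log2 difference between the mutants of 1.16 ± 0.13 (adjusted p = 0.00301). Histone H4 at Medtr7g029520 was at 2.41 ± 0.333 FPKM in hsfa9-1 and 6.06 ± 0.802 in hsfa9-2 (1.05 ± 0.13, adjusted p = 0.00515), and the lipid transfer protein Medtr5g012380, listed at 0 FPKM in all 3 R108 libraries, was at 4.62 ± 0.483 and 10.4 ± 1.82 (1.02 ± 0.13, adjusted p = 0.00544). Of these 12 largest rises, R108 lay below both mutants in 7, between them in 3 and above both in 2. The call held in every alternative tried for 11 of the 12; that of Medtr3g087060 was lost when single transcript models were tested in place of loci.

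At the same minimum of 5 FPKM, the largest described falls were mostly transcripts that were low in R108 and raised in hsfa9-1. Medtr7g033305, a putative transmembrane protein, had 26.6, 19.7 and 7.38 FPKM in hsfa9-1, 1.09, 1.41 and 1.28 in hsfa9-2 and 1.4, 1.82 and 1.95 in R108. The hsfa9-1 libraries were high and spread, hsfa9-2 overlapped the wild type, and the difference was −2.90 ± 0.34 (adjusted p = 0.00339). Medtr8g066210, a P-loop nucleoside triphosphate hydrolase of unspecified role, had the lowest p of all: it was at 18.2, 19.2 and 17.4 FPKM in hsfa9-1, 2.71, 2.91 and 2.87 in hsfa9-2 and 0, 0.06 and 0.06 in R108. Both mutants were above a wild type near 0, and hsfa9-2 was lower than hsfa9-1 by −2.33 ± 0.10 (adjusted p = 4.54e-06). Its neighbour Medtr8g066220, of the same description, fell as well (−1.05 ± 0.17, adjusted p = 0.0184), at 1.51 ± 0.104 FPKM in hsfa9-1 and 0.217 ± 0.138 in hsfa9-2.

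Medtr3g045440, described as like the bacterial stress regulator rsbQ, an alpha/beta hydrolase, had 13.7, 17.1 and 14.1 FPKM in hsfa9-1, 3.47, 3.26 and 3.13 in hsfa9-2 and 0.91, 1.12 and 0.7 in R108. Medtr1g111540, a transporter of the major facilitator superfamily, had 7.46, 14.1 and 10.4 FPKM in hsfa9-1, 2.32, 2.41 and 2.59 in hsfa9-2 and 0.22, 0.22 and 0.4 in R108. At both loci the 3 groups were separate and hsfa9-2 lay between the others, with differences from hsfa9-1 of −1.89 ± 0.12 and −1.72 ± 0.18 (adjusted p = 8.74e-05 and 0.00212). The small GTPase Medtr8g107070, a RAB A2D-like protein of vesicle traffic, was at 6.01, 6.66 and 4.17 FPKM in hsfa9-1, 1.37, 1.08 and 1.13 in hsfa9-2 and 1.07, 1.28 and 0.86 in R108; here hsfa9-2 overlapped the wild type and the mutants differed by −1.57 ± 0.16 (adjusted p = 0.00163).

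In 2 of the large falls the wild type was at or above hsfa9-1. Medtr7g095150, an ovate transcriptional repressor, a family known in other plants for shaping organs, had 35, 28.6 and 28.8 FPKM in the wild type, 11.1, 15.4 and 17.2 in hsfa9-1 and 5.91, 2.77 and 3.08 in hsfa9-2. All 3 groups were separate, and the mutants differed by −1.70 ± 0.22 (adjusted p = 0.00587). Medtr4g108710, an HNH endonuclease domain protein, had 103, 94.7 and 115 FPKM in the wild type, 99.3, 86.6 and 91.1 in hsfa9-1 and 35.8, 37.2 and 33.5 in hsfa9-2. hsfa9-1 overlapped the wild type, while every hsfa9-2 library was far below both (−1.35 ± 0.08, adjusted p = 8.74e-05). Of these 12 largest falls, R108 lay below both mutants in 5, between them in 5 and above both in 2. The call held in every alternative for 9 of the 12, and the other 3 were Medtr1g052970, Medtr2g033055 and Medtr2g033080. The first of these, a putative transmembrane protein (−1.13 ± 0.22, adjusted p = 0.0391), lost its call in 15 of 21 alternatives.

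**Figure D4:**
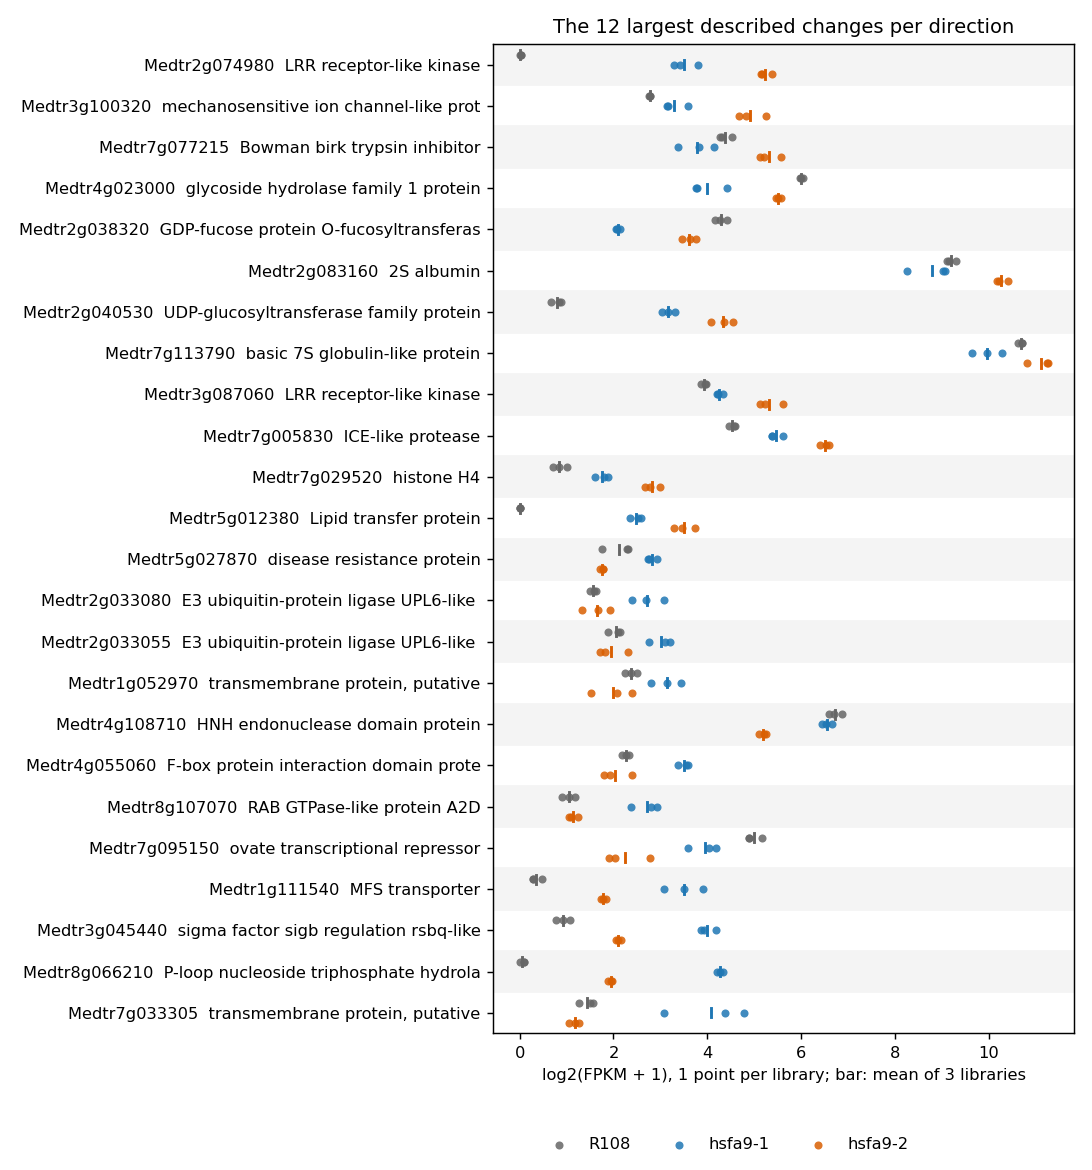
Level of the 12 largest rises (top) and 12 largest falls (bottom) in hsfa9-2 against hsfa9-1, among described loci with at least 5 FPKM in the higher mutant, as log2(FPKM + 1) on the horizontal axis, with 1 point per library and a bar at the mean of 3 libraries (R108 grey, hsfa9-1 blue, hsfa9-2 orange). Orange and blue points are separate at all 24 loci, while R108 lies below both, between them or above both.

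At 2 loci a transcript reached 2 FPKM in every library of 1 mutant and was at 0 in every library of the other. With any level above 0 in the first mutant, 2 tested loci were at 0 in all hsfa9-1 libraries (both called) and 7 in all hsfa9-2 libraries (4 called). Medtr2g061900, a hypothetical protein, was at 3.12, 4.29 and 5.74 FPKM in hsfa9-2, 0 in all 3 hsfa9-1 libraries and 0, 0 and 0.39 in R108. Medtr1g077120, a C2H2 zinc finger protein, of a family of DNA-binding regulators, was at 4.77, 2.56 and 6.62 FPKM in hsfa9-1, 0 in all 3 hsfa9-2 libraries and 0, 0 and 0.32 in R108. In both cases 2 of 3 wild-type libraries were also listed at 0. A similar pattern was seen at the MYB factor Medtr4g478180, with 3.89, 4.15 and 3.99 FPKM in hsfa9-1, 0.43, 0.43 and 0.31 in hsfa9-2 and 0 in all R108 libraries (−1.85 ± 0.11, adjusted p = 8.74e-05). It was the only call among 182 tested WRKY, NAC and MYB factors, where 1.12% of all loci were called.

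Receptor-like kinases were called in both directions. Of 216 tested, 3 rose and 3 fell in hsfa9-2, where 1.12% of all loci were called in either direction, with a list median of −0.07. Besides Medtr2g074980, the LRR kinase Medtr3g087060 rose from 18.1 ± 0.946 FPKM in hsfa9-1 to 39.3 ± 7.55 in hsfa9-2 (1.06 ± 0.11, adjusted p = 0.00212), with R108 at 14.2 ± 0.577. The third rise was Medtr2g079560, with 6.14, 7.12 and 5.96 FPKM in hsfa9-1, 11.3, 11 and 10.2 in hsfa9-2 and 9.47, 8.04 and 8.51 in R108 (0.68 ± 0.10, adjusted p = 0.00795). The falls, chosen for naming after their values were seen, were Medtr1g066950 (−0.64 ± 0.10), Medtr2g006910 (−0.73 ± 0.13) and Medtr8g461260 (−0.43 ± 0.07), with adjusted p-values of 0.0127, 0.0247 and 0.0159. Among 154 NB-LRR disease resistance genes, intracellular immune receptors, 1 rose and 1 fell. The fall, Medtr5g027870, went from 5.7, 5.8 and 6.64 FPKM in hsfa9-1 to 2.44, 2.29 and 2.45 in hsfa9-2 (−1.05 ± 0.15, adjusted p = 0.00818). The rise, Medtr4g023260, was of 0.66 ± 0.12 (adjusted p = 0.0369), and its call was lost in 13 of 21 alternatives.

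F-box and ubiquitin pathway transcripts that passed the test were all lower in hsfa9-2. F-box proteins are the subunits that choose substrates for SCF ubiquitin ligases; 317 were tested, none rose and 7 fell (background 0.628% called lower), with a list median of −0.08. This list was added after values were seen. Without hsfa9-2 replicate 1 the falls numbered 11, and without replicate 3 they numbered 3. Medtr4g055060 was at 11.1, 9.32 and 10.6 FPKM in hsfa9-1, 4.26, 2.8 and 2.47 in hsfa9-2 and 3.79, 4.05 and 3.51 in R108, and Medtr4g094932, described as SKIP2, at 27.1, 25.1 and 22.7, 13.5, 15.1 and 13.1 and 12.1, 11.3 and 11.2 in the same order. In both, hsfa9-1 stood above the other groups, and the mutants differed by −1.46 ± 0.15 and −0.80 ± 0.09 (adjusted p = 0.00165 and 0.00212). The other 5 falls were Medtr7g078040 (−0.92), Medtr2g028130 (−0.78), Medtr8g469020 (−0.70), Medtr4g028510 (−0.55) and Medtr3g080370 (−0.39), as log2 differences. Of these, Medtr4g028510 lost its call in 18 of 20 alternatives, Medtr3g080370 in 17 of 21, Medtr8g469020 in 15 of 20 and Medtr2g028130 in 9 of 21. Of 214 proteasome and ubiquitin conjugation loci 4 fell and none rose, with a median of −0.06; without hsfa9-2 replicate 3 there was 1 fall. Both UPL6-like ubiquitin ligase loci, the neighbours Medtr2g033055 and Medtr2g033080, were among them (−1.08 ± 0.17 and −1.08 ± 0.19, adjusted p = 0.017 and 0.0312). Both are of low level, with 7.59, 8.21 and 5.77 FPKM in hsfa9-1 and 3.93, 2.52 and 2.27 in hsfa9-2 at Medtr2g033055. The other 2 were a proteasome ATPase, Medtr3g117230 (−0.39 ± 0.07, adjusted p = 0.0367), and a ubiquitin-conjugating enzyme, Medtr8g098615 (−0.64 ± 0.12, adjusted p = 0.033).

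Among 233 proteases and protease inhibitors 4 rose and 1 fell, against 0.491% and 0.628% of all loci, with a median of −0.06. Without hsfa9-2 replicate 1 there were 7 rises and 3 falls, and without replicate 3 there were 2 and 1. Of the rises 2 were trypsin inhibitors, among 21 tested loci of the list that are described as inhibitors, a subset chosen after its values were seen. The Bowman-Birk trypsin inhibitor Medtr7g077215 had 16.6, 9.31 and 13.2 FPKM in hsfa9-1, 34, 46.8 and 36 in hsfa9-2 and 19, 18.2 and 22.1 in R108; the groups did not overlap and the mutants differed by 1.53 ± 0.18 (adjusted p = 0.0034). The Kunitz-type inhibitor Medtr6g078070 had 235, 219 and 223 FPKM in hsfa9-1, 329, 404 and 400.5 in hsfa9-2 and 71.1, 101 and 90.2 in R108, a difference of 0.74 ± 0.12 (adjusted p = 0.0198). The caspase-like protease Medtr7g005830, of the family of the plant metacaspases, rose from 40.8, 47.6 and 40.3 FPKM in hsfa9-1 to 91.9, 82.9 and 95.3 in hsfa9-2, with R108 at 22.9, 22.6 and 20.9. All 3 groups were separate, hsfa9-2 highest (1.05 ± 0.08, adjusted p = 0.000322). The fourth rise was a site 2 protease of membrane proteins, Medtr4g010130 (0.66 ± 0.10, adjusted p = 0.0147). The fall was the papain family cysteine protease Medtr4g125300, with 33.1, 30.3 and 35 FPKM in hsfa9-1, 16, 16.1 and 14.9 in hsfa9-2 and 7.82, 6.85 and 7.51 in R108 (−1.02 ± 0.08, adjusted p = 0.000322).

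Lipid, glycosylation and P450 lists held 8 calls between them. Among 120 lipoxygenases, lipases and lipid transfer proteins 3 rose and 1 fell, where 0.491% and 0.628% of all loci were called higher and lower. The seed linoleate 9S-lipoxygenase Medtr2g099570, which oxidizes linoleic acid, had 35.9, 29.8 and 35.9 FPKM in hsfa9-1, 57.2, 57.1 and 54.3 in hsfa9-2 and 25.1, 25.1 and 25.2 in R108. The groups did not overlap and hsfa9-2 was highest (0.72 ± 0.08, adjusted p = 0.00212). Phospholipase D alpha 1, Medtr4g010650, was lower in hsfa9-1 than in the other groups, at 5.83 ± 0.671 FPKM against 10.3 ± 0.631 in hsfa9-2 and 9.46 ± 0.645 in R108 (0.73 ± 0.10, adjusted p = 0.00676). An alpha-dioxygenase, Medtr6g007770, and a pyruvate decarboxylase, Medtr2g015560, both named after their values were seen, also rose (0.83 ± 0.08 and 0.66 ± 0.09, adjusted p = 0.00163 and 0.00689). Among 168 UDP-glycosyltransferases 2 rose, the second being Medtr7g117405, at 23.8 ± 0.101 FPKM in hsfa9-1, 33.5 ± 3.61 in hsfa9-2 and 163 ± 3.01 in R108 (0.47 ± 0.07, adjusted p = 0.0153). Of 120 cytochrome P450 loci 2 fell, Medtr4g025980 of family 71 (−1.25 ± 0.15, adjusted p = 0.00301) and Medtr2g031930, described as an ent-kaurenoic acid oxidase, an enzyme of gibberellin synthesis (−0.62 ± 0.11, adjusted p = 0.0357). A pair of spermidine hydroxycinnamoyl transferase neighbours, Medtr7g085930 and Medtr7g085990, whose family makes phenolic polyamines, rose by similar amounts (0.80 ± 0.14 and 0.76 ± 0.11, adjusted p = 0.0284 and 0.00845).

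Hormone and signalling lists held few calls, where 0.491% of all tested loci were called higher and 0.628% lower. Of 23 gibberellin loci 1 rose, the gibberellin-regulated family protein Medtr1g018640, with 57.1, 38.7 and 54.6 FPKM in hsfa9-1, 107, 91.9 and 78.6 in hsfa9-2 and 356, 478 and 455 in R108. Both mutants were far below the wild type, hsfa9-1 further (0.88 ± 0.17, adjusted p = 0.0369), and without hsfa9-2 replicate 1 the difference was 0.77 (adjusted p = 0.0635); the call was lost in 12 of 21 alternatives. None of 15 abscisic acid, 95 auxin or 74 ethylene loci was called, and lists of this size would hold few or no calls at those shares. The 2 signalling loci, chosen after their values were seen, were a jasmonate ZIM-domain repressor, Medtr5g013520, which rose (0.44 ± 0.06, adjusted p = 0.00885), and the SNF1-related kinase regulatory subunit gamma Medtr4g103550, part of an energy-sensing kinase, which fell (−0.65 ± 0.08, adjusted p = 0.00575). The latter had 80.7, 74.8 and 75.9 FPKM in hsfa9-1, 55.4, 43.5 and 48.6 in hsfa9-2 and 18.9, 20.0 and 19 in R108, separate in all 3 groups. Of 156 bHLH, bZIP and homeobox factors 1 fell, the bZIP locus Medtr8g028150 (−0.29 ± 0.06, adjusted p = 0.0489), a small difference whose call was lost in 19 of 21 alternatives, all 9 that leave out a library included.

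The remaining lists gave 1 or 2 calls each, where 0.491% of all tested loci were called higher and 0.628% lower. Rises were found in 2 of 122 cell cycle and histone loci (histone H4 and the cyclin Medtr3g102310, 0.66 ± 0.09, adjusted p = 0.0077). They were also found in 1 of 139 antioxidant loci, a lactoylglutathione lyase, Medtr4g132270 (0.97 ± 0.17, adjusted p = 0.0252), and in 1 of 50 nodule-related loci, the early nodulin 93 Medtr1g007360 (0.80 ± 0.13, adjusted p = 0.0186). Of 98 cell wall loci, a xyloglucan endotransglucosylase/hydrolase, Medtr4g128400, which loosens walls, rose (0.59 ± 0.10, adjusted p = 0.0291) and a polygalacturonase-inhibiting protein, Medtr7g023670, fell (−0.53 ± 0.10, adjusted p = 0.0367). One of 17 aquaporins, Medtr2g094270, fell (−0.53 ± 0.07, adjusted p = 0.00751), with 46.1 ± 2.29 FPKM in hsfa9-1 and 31.6 ± 1.11 in hsfa9-2.

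No locus was called among 171 cytosolic ribosomal proteins, 443 pentatricopeptide repeat proteins, 146 splicing factors and RNA helicases, 90 photosynthesis, 56 DNA repair, 52 flavonoid, 34 lignin and suberin, 36 pathogenesis-related, 83 amino acid and nitrate transporter, 26 sugar transporter and 4 retroelement loci. Of all tested loci 1.12% were called in either direction, so the smaller lists would hold few or no calls at that share. Photosynthesis transcripts, which in a seed sample mark green tissue, had a median of −0.18, and 21 of the 90 had every hsfa9-2 library below every hsfa9-1 library, where 13.5% of all loci did. For splicing factors and RNA helicases the median was −0.10 and that number was 43 of 146. Flavonoid and lignin lists, which mark the seed coat and pod wall, had medians of 0.05 and 0.01, and their summed levels were 2805 ± 130 and 3096 ± 131 FPKM for flavonoid synthesis and 841 ± 38.6 and 839 ± 40.5 for lignin and suberin (hsfa9-1 and hsfa9-2, SD, n = 3 each).

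Among the most abundant loci called, the AP2 domain transcription factor Medtr1g023170 had 199, 193 and 243 FPKM in the wild type, 3452, 3366 and 3328 in hsfa9-1 and 4858, 5489 and 4934 in hsfa9-2. AP2 domain factors bind promoters in development and stress; here both mutants were far above the wild type and hsfa9-2 was above hsfa9-1 by 0.59 ± 0.09 (adjusted p = 0.0151). The hypothetical protein Medtr5g032030 and its neighbour Medtr5g032020, a nucleobase-ascorbate transporter-like protein, both chosen after their values were seen, had the same order. Medtr5g032030 went from 24.1, 33 and 26.9 FPKM in the wild type to 1005, 931 and 867 in hsfa9-1 and 1785, 2616 and 2304 in hsfa9-2 (1.24 ± 0.14 between the mutants, adjusted p = 0.00301), and Medtr5g032020 differed by 0.66 ± 0.10 (adjusted p = 0.0151). The most abundant fall was the chloroplast-type ycf68 locus Medtr4g006040, with 1865, 1565 and 1635 FPKM in the wild type, 712, 828 and 904 in hsfa9-1 and 619.9, 442 and 495 in hsfa9-2. The groups did not overlap (−0.66 ± 0.13, adjusted p = 0.0461), and the call was lost in 16 of 20 alternatives. The MATE efflux transporter Medtr5g032720 fell by a smaller amount (−0.47 ± 0.09, adjusted p = 0.0324).

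Read against the wild type, the differences between the alleles took several forms. Of the 86 loci higher in hsfa9-2, the R108 mean lay below both mutants at 43, above both at 24 and between them at 19. Of the 110 lower loci, it lay above both at 42, below both at 38 and between at 30. Among the loci between, 14 were called against R108 in opposite directions in the 2 mutants; these comparisons share the R108 libraries. Prephenate dehydrogenase, Medtr5g083530, of tyrosine synthesis, had 1.13, 0.56 and 1.14 FPKM in the wild type, 0.28, 0.21 and 0.07 in hsfa9-1 and 3.37, 2.22 and 2.88 in hsfa9-2, with log2 differences from R108 of −0.70 and 0.98. The Bowman-Birk inhibitor Medtr7g077215 had differences from R108 of −0.59 in hsfa9-1 and 0.94 in hsfa9-2, and legumin A2 Medtr7g096990 had −0.36 and 0.60. In the opposite order, replication protein A 32 kDa subunit Medtr4g127950, which coats single-stranded DNA, had 17.9, 17.2 and 18.1 FPKM in the wild type, 25.8, 28 and 21.7 in hsfa9-1 and 13.3, 13.3 and 11.1 in hsfa9-2. NPR1, Medtr2g028950, the salicylic acid receptor and co-activator of defence genes, had 19.8, 19.5 and 21.5, 30.1, 24.8 and 26.2 and 17.5, 17 and 16.6 in the same order, with differences from R108 of 0.39 (adjusted p = 0.0018) and −0.24 (adjusted p = 0.0274).

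Called loci were spread over the genome. By the chromosome in the locus name, the share called ran from 0.817% of 2447 tested loci on chromosome 3 to 1.59% of 1955 on chromosome 5. There were 6 pairs of neighbouring tested loci that were both called, 5 of them in the same direction, and no run of 3 or more with large changes. Whether 6 pairs is more than unclustered calls would give was not tested. The same-direction pairs included the P-loop, UPL6-like, spermidine transferase and Medtr5g032020 to Medtr5g032030 pairs above. Where such neighbours are copies of one gene, their values need not be independent.

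Size of change and call did not always go together. There were 5 loci with an absolute log2 difference of at least 1.5 that were not called, and in each the libraries of 1 line were far apart. Histone H2B at Medtr4g070240 was at 17, 13.8 and 9.39 FPKM in hsfa9-1 and 0.19, 11.1 and 0 in hsfa9-2 (−2.53 ± 0.81, adjusted p = 0.217). The chaperonin fragment Medtr0991s0010 was at 0 in all hsfa9-1 libraries and 57, 0.81 and 0 in hsfa9-2. For a single locus, an exact permutation test of 3 libraries against 3 cannot go below p = 0.1, so the calls rest on the spread pooled across loci.

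Calls were more numerous or fewer under other processing choices, and no single library carried them all. Leaving out 1 library at a time gave 94 to 324 called loci; the largest count was without hsfa9-2 replicate 1 and the smallest without hsfa9-1 replicate 2. Of the 196, 78 were called in all 9 of these fits, 37 higher and 41 lower in hsfa9-2.

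**Figure D5:**
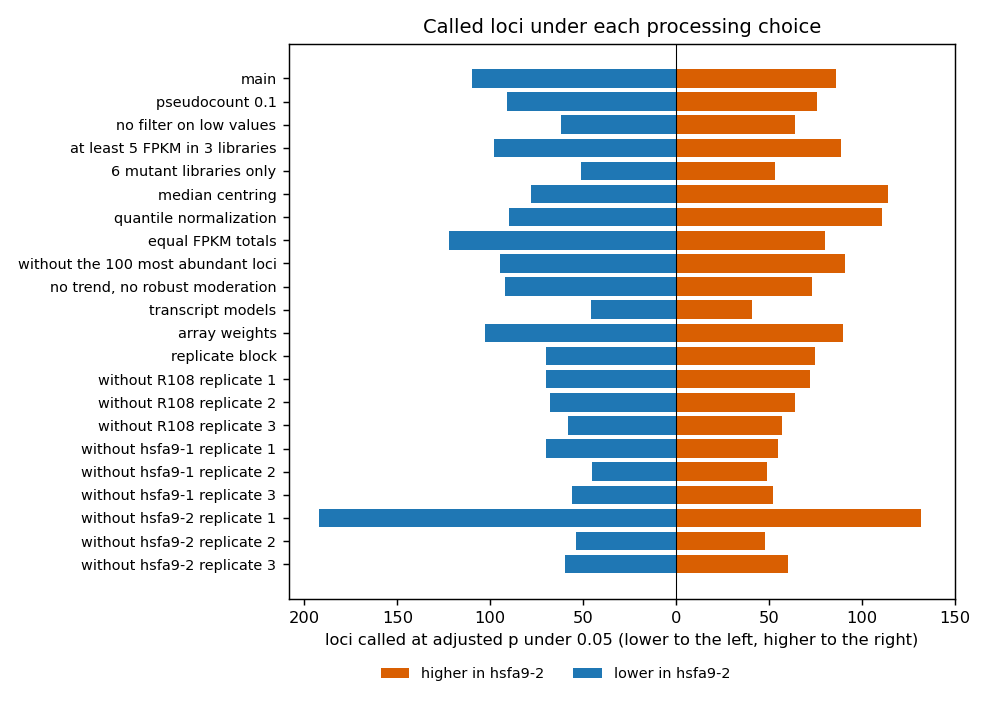
Number of loci called at an adjusted p under 0.05 under each processing choice, with loci lower in hsfa9-2 drawn to the left (blue) and higher to the right (orange) of 0. The reported fit gives 110 and 86; the bars are longest without hsfa9-2 replicate 1 (192 and 132) and the higher calls outnumber the lower ones after median centring (114 against 78).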

How the data were processed

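FPKM values for 42631 transcript models were deposited by the authors. Per the submitters' processing notes HISAT, HISAT2, Bowtie2 and RSEM were used; their versions and roles, the genome build and the annotation were not given in those sources. FPKM divides by the sum over all transcripts, so a rise in abundant transcripts lowers the others. Models were summed per locus (36695 loci). Loci reaching 1 FPKM in 3 or more of the 9 libraries were tested on log2(FPKM + 1), a scale that understates changes of low loci, with limma 3.58.1 (R 4.3.3, intensity trend and robust moderation) over all 9 libraries, contrast hsfa9-2 minus hsfa9-1, two-sided, Benjamini-Hochberg adjusted over all 17508 loci; the threshold was 0.05. The script was tested on simulated data. Read counts were not analysed here, so values carry no counting interval.

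The 38 gene lists gather loci by words in their descriptions. Members and lists were chosen with earlier results of these data known; some word patterns were corrected and the F-box list added after values were seen. The text names the 12 largest described changes per direction at 5 FPKM or more with no overlap; loci at 2 FPKM or more in 1 mutant and 0.1 or less in the other; from each list, members among the 2 lowest p-values; the 4 most abundant called loci per direction; and 6 called against R108 in opposite directions. Other loci were chosen after their values were seen. The libraries of a line came from different plants, and p-values measure the spread between such libraries. Alternatives were other pseudocounts (0.1), filters, scalings, fits on 6 libraries or with array weights, single transcript models, a replicate block and leaving out each library. No sequence of these loci was used here.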

Additional observations from a re-analysis of the deposited data

Results flagged for a closer look

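For 14 loci the change from R108 went one way in hsfa9-1 and the other way in hsfa9-2, each past the threshold, and the difference between the mutants passed as well (limma, Benjamini-Hochberg). Both changes are taken from the same R108 libraries. The difference between the mutants is the gap between these opposite changes, so its passing was largely set by the selection and is no separate support. The log2 difference hsfa9-2 minus hsfa9-1 was positive, with hsfa9-1 below and hsfa9-2 above R108, for prephenate dehydrogenase Medtr5g083530 (1.68), the DUF4057 protein Medtr7g008860 (1.63), the Bowman-Birk inhibitor Medtr7g077215 (1.53), the hypothetical protein Medtr3g108610 (1.35), the basic 7S globulin-like Medtr7g113790 (1.15), the DUF761 protein Medtr4g019980 (0.98), legumin A2 Medtr7g096990 (0.962) and the LRR receptor kinase Medtr2g079560 (0.679). It was negative for the hypothetical proteins Medtr7g046360 (−1.64), Medtr5g032950 (−1.43), Medtr0186s0100 (−1.04) and Medtr3g008350 (−0.586), for the replication protein A subunit Medtr4g127950 (−0.947) and for NPR1 Medtr2g028950 (−0.631).

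Several of these are of low level. Medtr5g032950 was at 1.29, 2.17 and 1.72 FPKM in hsfa9-1, 0.43, 0.43 and 1.3 in R108 and 0 in all hsfa9-2 libraries, and Medtr7g008860 at 0.35, 0 and 0.35 in hsfa9-1, 2.11, 0.35 and 1.07 in R108 and 2.14, 3.59 and 2.75 in hsfa9-2. The call between the mutants was lost in 12 of 21 alternatives for Medtr3g008350, in 9 of 20 for Medtr7g008860 and in 2 of 20 for Medtr3g108610. It was lost in 1 of 21 for Medtr4g127950, Medtr2g028950 and Medtr2g079560, and in none for the other 8.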

How the results depend on the processing

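Of the 196 calls (86 higher, 110 lower), the count fell to 126 (64 and 62) with no filter on low values, 104 (53 and 51) on the 6 mutant libraries alone and 87 (41 and 46) with single transcript models. Leaving out 1 library gave 94 to 324 called (48 to 132 higher, 45 to 192 lower), highest without hsfa9-2 replicate 1 (324) and at 94 to 125 without any 1 of the 3 hsfa9-1 libraries, hsfa9-2 replicate 2 or 3 or R108 replicate 3. Fewer samples enter these fits; further causes were not tested. The other alternatives gave 145 to 202 calls. Deviations of libraries of the same replicate number from their group means correlated at −0.125 to 0.0026 between the mutants. These correlations were 0.0323 to 0.0960 between R108 and hsfa9-2 and −0.0568 to −0.0129 between R108 and hsfa9-1. Libraries of different numbers gave −0.101 to 0.0935. Values this small, around means of 3 libraries, cannot decide whether the numbers pair the samples. With a replicate block 145 loci were called, 75 higher and 70 lower. Of 93 called loci recomputed under each alternative, 46 kept the call in all of them, 23 lost it in 1 to 9 and 24 in 10 or more. The last include Medtr5g032720, Medtr4g128400, Medtr7g023670, Medtr2g031930, Medtr3g117230, Medtr2g033080, Medtr8g098615 and Medtr7g079820. Among the named loci that were recomputed (not Medtr4g070240 and Medtr0991s0010) none changed sign apart from the ubiquitin-conjugating enzyme Medtr8g098615, at 0.0832 with its most abundant transcript model alone; the cause was not tested. Depth per locus is unknown, and loci near 1 FPKM, near-identical gene copies and the single line per allele limit what the differences show.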
